A study of Mus musculus with 32 samples.

Results

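The mouse genes followed here encode proteins by which the mouse oocyte stores, represses and later activates its messenger RNAs: Zar1, Zar1l, Ybx2, Dazl, Patl2, Cpeb1, Cpeb2, Cpeb3 and Cpeb4. They were taken by name from both expression tables, and all 9 were present once in each, among 46078 genes listed. All 9 passed the filter on low values in both tables, 1 FPKM or more in at least 2 libraries. FPKM is the number of fragments per kilobase of transcript, scaled to the mapped fragments of the library.

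The data were 32 RNA sequencing libraries of late 1-cell embryos, 12 h post fertilization (hpf), and late 2-cell embryos, 28 hpf. They came from a study on Dppa2 and Dppa4, a pair of DNA-binding proteins. Groups are named by the maternal (m) and zygotic (z) allele, so that m-z+ embryos lack the maternal copy alone, and in m-z- embryos the zygotic copy is missing too. Total RNA came from 8 groups of 2 libraries, Dppa2 m-z+ and Dppa2 m+z+ on a mixed B6/DBA background and Dppa4 m-z+ and Dppa4 m+z+ on B6, each at both stages. PolyA RNA was sequenced from single embryos in 6 groups: Dppa2 m-z-, Dppa2 m-z+, Dppa4 m-z- and Dppa4 m-z+ at the 2-cell stage with 3 libraries each, and WT (B6, called controls of the Dppa4 arm in their descriptions) at both stages with 2 libraries each. The sources used here do not give the allele deleted, the method of deletion or the ages of the mothers. Nor is it said whether replicates came from separate animals. P-values thus reflect only how far libraries of the same group lie apart, and that spread may be technical. The spread was pooled over all groups of a table and drawn toward that of other genes, so it is not that of the compared groups alone. Deposited FPKM summed to 412115 to 629583 per total RNA library and 539978 to 675241 per polyA library, and without counts the depth is unknown.

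The labels were checked on the targeted genes. Dppa4 was at 0, 0 and 0.149 FPKM in the Dppa4 m-z- libraries, against 155.0, 152 and 125 FPKM in Dppa4 m-z+ libraries. Dppa2 was at 155, 130.2 and 76.55 FPKM in the libraries labelled Dppa2 m-z-, against 92.4, 87.35 and 63.25 FPKM in Dppa2 m-z+ libraries, so its level did not separate these groups, and they are called by their labels throughout. In 1-cell total RNA Dppa2 was at 9.38 and 9.52 FPKM in Dppa2 m-z+ libraries, against 32.3 and 32.7 FPKM in Dppa2 m+z+ libraries. Of the markers of the embryo's own stages, 5 oocyte genes (Gdf9, Bmp15, Zp3, Nlrp5, Ooep) summed to 270.0 to 625 FPKM at the 2-cell stage and 1160 to 1730 FPKM at the 1-cell stage in total RNA. A further 5 genes of the 2-cell stage (Zscan4c, Zscan4d, Zfp352, Tdpoz1, Tdpoz4) summed to 142 to 205 FPKM at the 2-cell stage and 3.08 to 10.8 FPKM at the 1-cell stage. Cumulus markers and sperm markers, 6 genes each, summed to at most 18.3 FPKM in any library. Blood markers, a sum over 5 genes, stood at 4.58 to 14.8 FPKM at the 2-cell stage and 0 to 0.0825 FPKM at the 1-cell stage in total RNA. In polyA RNA they were at most 0.101 FPKM in WT 1-cell libraries, and stood at 16.8 to 147 FPKM in 13 of the 14 polyA 2-cell libraries and at 1460 FPKM in replicate 3 labelled Dppa2 m-z-, in which alone Hbb-bs was detected, at 378 FPKM.

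During growth the mouse oocyte makes far more messenger RNA than it translates at once, and holds much of it with a short polyA tail in a repressed store. Zar1 and its relative Zar1l are zinc finger proteins that bind the 3' untranslated regions of such messages, and Zar1 is known as a maternal-effect gene needed to pass the 1-cell to 2-cell transition. Ybx2 (MSY2) is the abundant Y-box protein that coats stored RNA. Cpeb1 binds the cytoplasmic polyadenylation element (CPE) near the 3' end of a message, represses it, and after phosphorylation brings about lengthening of its tail. Cpeb2, Cpeb3 and Cpeb4 are its relatives, and Cpeb4 takes over from Cpeb1 during meiosis in the frog. Dazl is a germ cell RNA-binding protein that promotes translation of its targets in maturing oocytes, and Patl2 is an oocyte form of the decay and repression factor Pat1. Most maternal messages are degraded between ovulation and the late 2-cell stage, while the embryonic genome becomes active.

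The messages of these storage proteins were themselves searched for the 2 elements that such proteins and the polyadenylation machinery read: the CPE (TTTTAT or TTTTAAT) and the polyadenylation hexamer (AATAAA or ATTAAA), sense strand only, in the last 100 bases of 1 transcript per gene (GENCODE M21, mm10). 5 ends are shown. Zar1, Zar1l and Dazl fell in every stage comparison, as did Patl2 and Cpeb1, whose ends are not shown. Ybx2 differed most between the kinds of library. Cpeb4 was higher at the 2-cell stage in total RNA, as was Cpeb2, whose end is not shown. Capitals mark the hexamer or the CPE, and each stretch is 30 bases, 5' to 3'.
Zar1, chr5:72577114-72577143, minus strand: aagcctgtgAATAAAaggtattgcaaacaa
Zar1l, chr5:150507055-150507084, minus strand: cttcagcttaaAATAAAccttgtgacagtg
Dazl, chr17:50279397-50279426, minus strand: gtatacacgAATAAAacctttttttcaaaa
Ybx2, chr11:69941538-69941567, plus strand: aagccaTTTTATgaactgtcatgtgccacc
Cpeb4, chr11:31935605-31935634, plus strand: gatgttgaatgAATAAAacttttaactcag
Ybx2 was the 1 member with a CPE in the window, starting 62 bases from the end of its transcript, and the 1 member with no hexamer there. The other 8 members had a hexamer and no CPE. Over 21022 genes a CPE was found in 17.2%, a hexamer in 77.6% and both in 13.8%. Zar1l stood apart by its short 3' untranslated region of 14 bases, so that its hexamer, starting 19 bases from the end, overlaps the stop codon TAA. Whole 3' untranslated regions, window included, held 24 CPE matches in Cpeb2 (3778 bases), 17 in Cpeb4 (4102 bases) and 6 each in Cpeb3 (3569 bases) and Dazl (1852 bases). Cpeb1 held 4 (1315 bases), and Ybx2 only the 1 named above (414 bases). Zar1 (146 bases), Zar1l and Patl2 (366 bases) held none. A match is a description of these letters and not a site shown to be bound. The other members lie on mm10 at chr2:122120108-122186189 (Patl2, minus strand), chr7:81347026-81455465 (Cpeb1, minus strand), chr5:43233170-43289724 (Cpeb2, plus strand) and chr19:37021291-37208601 (Cpeb3, minus strand).

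Chromosome 5 holds Zar1, Zar1l and Cpeb2, far apart from each other, and Cpeb2 did not fall. Zar1 and Zar1l fell in the same comparisons. Their promoters were searched on both strands for the E-box (CANNTG), bound in oocytes by FIGLA, and for TAATTG, bound by NOBOX. The 250 bases before the RefSeq start (GRCm38.p6) are shown, with matches in capitals (TAATTG reads CAATTA on the other strand, and the 2 motifs do not overlap here).
Zar1, chr5:72581085-72581334, minus strand: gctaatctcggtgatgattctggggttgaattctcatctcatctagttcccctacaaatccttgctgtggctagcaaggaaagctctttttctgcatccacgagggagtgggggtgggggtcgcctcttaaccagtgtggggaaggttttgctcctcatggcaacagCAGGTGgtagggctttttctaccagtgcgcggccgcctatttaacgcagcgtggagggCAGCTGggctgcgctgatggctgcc
Zar1l, chr5:150518160-150518409, minus strand: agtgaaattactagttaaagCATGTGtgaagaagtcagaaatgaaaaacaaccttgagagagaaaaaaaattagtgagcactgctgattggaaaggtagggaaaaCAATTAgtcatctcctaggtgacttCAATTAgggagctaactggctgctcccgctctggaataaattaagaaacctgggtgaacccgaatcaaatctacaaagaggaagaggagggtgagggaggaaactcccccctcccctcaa
Zar1 had 2 E-boxes, whose first bases lie 83 and 25 bases before the start, and no TAATTG. Zar1l had 2 TAATTG matches, 145 and 120 bases before the start, and 1 E-box, 230 bases before it. Among 32851 RefSeq promoters of this length, 66.2% held CANNTG and 7.17% held TAATTG. GENCODE M21 starts the Zar1 gene record 170 bases further upstream, within the stretch shown, and the Zar1l record 5 bases further upstream.

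In total RNA most of these messages fell between the 1-cell and the 2-cell stage, in every genotype. Zar1l, Zar1, Patl2, Dazl and Cpeb1 fell in all 4 total RNA comparisons and in WT polyA RNA. Cpeb2 and Cpeb4 were higher at the 2-cell stage in most total RNA comparisons, and Ybx2 passed the test in both genotypes of the Dppa2 arm and in neither of the Dppa4 arm. In Dppa2 m-z+ embryos 6 of 9 members fell, against 28.4% of the 15068 genes tested, and 2 rose, against 28.8%. In Dppa2 m+z+ embryos 7 fell, against 29.9% of genes, and 1 rose, against 31.7%. In Dppa4 m-z+ embryos 5 fell, against 25.0% of genes, and 1 rose, against 25.3%. In Dppa4 m+z+ embryos 6 fell, against 24.2% of genes, and 2 rose, against 24.9%. In WT polyA embryos 5 fell, against 8.42% of the 18506 genes tested, and none rose, against 17.4%. At an unadjusted p under 0.05 only the 5 that fell were past, where 36.8% of all genes were. The members' median log2 change was -2.10, -2.25, -1.95, -1.66 and -2.07 in these 5 comparisons in turn, while the median of all genes lay between 0.02 and 0.23. Scaling moved the balance of calls. In total RNA 50.3% to 51.5% of the genes called were higher at the 2-cell stage as deposited. That share was 38.5% to 42.7% with libraries scaled to a common total and 53.8% to 54.4% with median-ratio scaling. In WT polyA RNA it was 67.4% as deposited, 62.4% with a common total and 54.7% with median-ratio scaling. Calls are at an adjusted p under 0.05 in limma on log2(FPKM + 1), Benjamini-Hochberg over all genes tested. FPKM gives a gene's share of a library, so that less RNA of a gene, more RNA of other genes and fewer cells that hold it cannot be told apart.

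**Figure D1:**
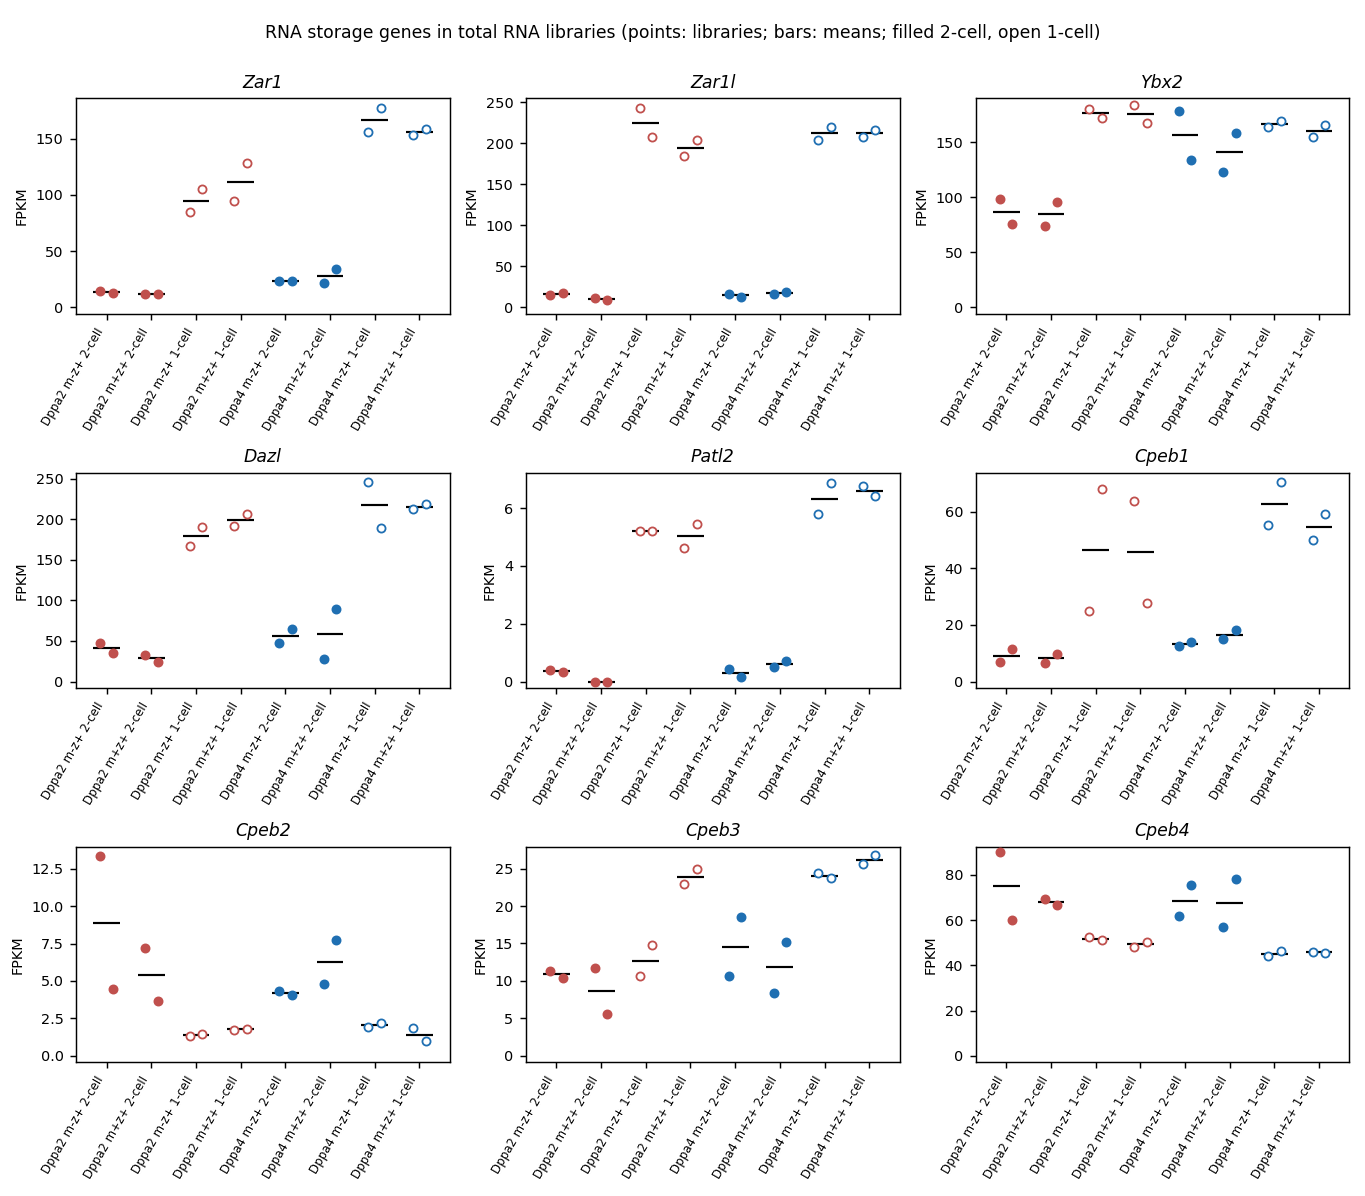
FPKM of each gene in every total RNA library, on a linear axis, by group; points are libraries, bars are means of 2, filled points are 2-cell and open points 1-cell embryos, red the Dppa2 arm and blue the Dppa4 arm. Zar1, Zar1l, Dazl, Patl2 and Cpeb1 have all 8 2-cell libraries below all 8 1-cell libraries, Cpeb2 and Cpeb4 have them above, and Ybx2 and Cpeb3 overlap.

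On the log2(FPKM + 1) scale Zar1l showed the largest fall of the 9 genes in each of the 4 total RNA comparisons; with a pseudocount of 0.1 Patl2 was further down in Dppa2 m+z+ (-5.68, against -4.32 for Zar1l) and in Dppa4 m-z+ embryos (-4.13, against -3.87). Zar1l was at 15.2 and 17.1 FPKM in Dppa2 m-z+ 2-cell libraries, against 243 and 207.5 FPKM in Dppa2 m-z+ 1-cell libraries. It was at 11.1 and 8.44 FPKM in Dppa2 m+z+ 2-cell libraries, against 185 and 204 FPKM at the 1-cell stage. Dppa4 m-z+ 2-cell libraries had 15.8 and 13.0 FPKM, against 204 and 220.5 FPKM in 1-cell libraries of that genotype. Dppa4 m+z+ 2-cell libraries had 16.05 and 18.8 FPKM, against 208 and 216 FPKM in 1-cell libraries of that genotype. The stages were thus far apart in every genotype, with a lowest 1-cell value of 185 FPKM and a highest 2-cell value of 18.8 FPKM. The log2 changes were -3.72 in Dppa2 m-z+, -4.19 in Dppa2 m+z+, -3.79 in Dppa4 m-z+ and -3.54 in Dppa4 m+z+ embryos, each with a standard error of 0.16, and the largest adjusted p was 1.94e-08.

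Zar1 fell in the same comparisons. Zar1 was at 14.2 and 13.0 FPKM in Dppa2 m-z+ 2-cell libraries, against 84.3 and 105 FPKM at the 1-cell stage, and at 11.4 FPKM in both Dppa2 m+z+ 2-cell libraries, against 94.1 and 128 FPKM. It was at 23.2 and 23.6 FPKM in Dppa4 m-z+ 2-cell libraries, against 156 and 177 FPKM, and at 21.2 and 34.3 FPKM in Dppa4 m+z+ 2-cell libraries, against 153 and 159 FPKM. All 4 groups of the Dppa4 arm were above the group of the same genotype and stage in the Dppa2 arm, with no overlap; the arms also differ in strain background, and the 2 cannot be told apart. Zar1 log2 changes were -2.71, -3.16, -2.78 and -2.49 (standard error 0.21 each) in Dppa2 m-z+, Dppa2 m+z+, Dppa4 m-z+ and Dppa4 m+z+ embryos, and the largest adjusted p was 1.49e-06. Ordered by mean, Zar1 ran from Dppa4 m-z+ and m+z+ 1-cell embryos, whose ranges overlap, through the 2 Dppa2 1-cell groups, which overlap, the 2 Dppa4 2-cell groups, which overlap, to the Dppa2 m-z+ and then m+z+ 2-cell groups, which do not.

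Dazl was at 47.6 and 35.25 FPKM in Dppa2 m-z+ 2-cell libraries, against 167 and 191 FPKM at the 1-cell stage, and at 32.7 and 24.6 FPKM in Dppa2 m+z+ 2-cell libraries, against 192 and 207 FPKM. It was at 47.4 and 64.3 FPKM in Dppa4 m-z+ 2-cell libraries, against 247 and 189 FPKM, and at 27.3 and 90.0 FPKM in Dppa4 m+z+ 2-cell libraries, against 212 and 219.6 FPKM. The stages did not overlap, but the 2 Dppa4 m+z+ 2-cell libraries differed widely from each other. Dazl log2 changes were -2.10, -2.77, -1.95 and -2.10 (standard error 0.39 each) in Dppa2 m-z+, Dppa2 m+z+, Dppa4 m-z+ and Dppa4 m+z+ embryos, and the largest adjusted p was 0.00115.

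Patl2 was the lowest of the messages that fell, at 0 to 0.694 FPKM in the 8 2-cell libraries and 4.61 to 6.885 FPKM in the 8 1-cell libraries of total RNA. It was listed at 0 in both Dppa2 m+z+ 2-cell libraries, and the fitted changes of so low a gene depend on the pseudocount. Patl2 log2 changes ran from -2.59 in Dppa2 m+z+ to -2.19 in Dppa2 m-z+ embryos (standard error 0.22), with a largest adjusted p of 4.12e-06.

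Ybx2 stayed abundant. It was at 98.2 and 75.4 FPKM in Dppa2 m-z+ 2-cell libraries, against 180.4 and 173 FPKM at the 1-cell stage, and at 73.9 and 95.8 FPKM in Dppa2 m+z+ 2-cell libraries, against 184 and 167 FPKM. Dppa4 m-z+ 2-cell libraries had 178 and 134 FPKM, against 164 and 169.7 FPKM in 1-cell libraries of that genotype. Dppa4 m+z+ 2-cell libraries had 123 and 158 FPKM, against 155 and 165.5 FPKM in 1-cell libraries of that genotype. The stages separated in the Dppa2 arm and overlapped in the Dppa4 arm. Ybx2 log2 changes were -1.03 and -1.05 (standard error 0.19) in Dppa2 m-z+ and m+z+ embryos, with adjusted p of 0.000417 and 0.00033, and in the Dppa4 arm -0.11 for m-z+ and -0.20 for m+z+ embryos, with adjusted p of 0.648 and 0.403. The difference between the controls of both arms was itself tested: the change in Dppa2 m+z+ minus that in Dppa4 m+z+ embryos was -0.86 (standard error 0.26), with an unadjusted p of 0.00633 and an adjusted p of 0.165, so that a difference between arms was not established. None of the 9 genes passed in that comparison, against 0.139% of genes; 3 were at an unadjusted p under 0.05, as were 15.3% of all genes. With libraries scaled to a common total, Ybx2 passed in Dppa4 m+z+ embryos too (log2 change -0.55, adjusted p 0.0446, over all alternatives 0.0446 to 0.974).

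The 4 Cpeb genes did not move together. Cpeb1 was at 6.74 and 11.6 FPKM in Dppa2 m-z+ 2-cell libraries, against 24.9 and 67.95 FPKM at the 1-cell stage, and at 6.67 and 9.79 FPKM in Dppa2 m+z+ 2-cell libraries, against 63.9 and 27.7 FPKM. Dppa4 m-z+ 2-cell libraries had 12.5 and 13.9 FPKM, against 55.2 and 70.6 FPKM in 1-cell libraries of that genotype. Dppa4 m+z+ 2-cell libraries had 14.9 and 18.25 FPKM, against 49.9 and 59.15 FPKM in 1-cell libraries of that genotype. The stages did not overlap, although 1-cell replicates of the Dppa2 arm lay far apart in both genotypes. Cpeb1 log2 changes were -2.10, -2.25, -2.16 and -1.66 (standard error 0.44 each) in Dppa2 m-z+, Dppa2 m+z+, Dppa4 m-z+ and Dppa4 m+z+ embryos, with a largest adjusted p of 0.00707. Without replicate 1 of the Dppa4 m+z+ 2-cell libraries the last change was -1.52, with an adjusted p of 0.0503.

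Cpeb4, the most abundant Cpeb message of 2-cell total RNA, was at 90.1 and 60.15 FPKM in Dppa2 m-z+ 2-cell libraries, against 52.4 and 51.3 FPKM at the 1-cell stage, and at 69.4 and 66.8 FPKM in Dppa2 m+z+ 2-cell libraries, against 48.2 and 50.5 FPKM. Dppa4 m-z+ 2-cell libraries had 61.6 and 75.5 FPKM, against 44.0 and 46.3 FPKM in 1-cell libraries of that genotype. Dppa4 m+z+ 2-cell libraries had 57.0 and 78.35 FPKM, against 46.0 and 45.55 FPKM in 1-cell libraries of that genotype. All 8 2-cell libraries lay above all 8 1-cell libraries, by a small step. Cpeb4 log2 changes were 0.50 (adjusted p 0.0427), 0.46 (0.0571), 0.58 (0.0239) and 0.54 (0.0361) in Dppa2 m-z+, Dppa2 m+z+, Dppa4 m-z+ and Dppa4 m+z+ embryos, with a standard error of 0.19 each. The change in Dppa2 m+z+ embryos passed when only the groups compared were fitted (0.46, adjusted p 0.0316), and that in Dppa2 m-z+ embryos then did not (0.50, adjusted p 0.133). These calls were at the edge: scaling each library to a common total left changes of 0.23, -0.00, 0.23 and 0.19, none past the threshold (adjusted p 0.446, 1.0, 0.459 and 0.553). That scaling moved the median change of all genes to between -0.30 and -0.19 in the 4 total RNA comparisons, against 0.02 to 0.06 as deposited. Relative to that median Cpeb4 was higher at the 2-cell stage under both scalings. Each of the 3 calls was also lost without single libraries, as in Dppa2 m-z+ embryos without 2-cell replicate 1 (0.21, adjusted p 0.384), in Dppa4 m-z+ embryos without 2-cell replicate 2 (0.44, adjusted p 0.159) and in Dppa4 m+z+ embryos without 2-cell replicate 2 (0.31, adjusted p 0.25). Leaving out 1-cell replicate 1 or 2 left changes of 0.51 and 0.48 in Dppa2 m-z+ embryos (adjusted p 0.113 and 0.133), 0.55 and 0.62 in Dppa4 m-z+ embryos (0.104 and 0.0732) and 0.54 and 0.53 in Dppa4 m+z+ embryos (0.112 and 0.122), none past the threshold.

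Cpeb2 was low at both stages. It was at 13.3 and 4.46 FPKM in Dppa2 m-z+ 2-cell libraries, against 1.325 and 1.42 FPKM at the 1-cell stage, and at 7.18 and 3.64 FPKM in Dppa2 m+z+ 2-cell libraries, against 1.70 and 1.81 FPKM. Dppa4 m-z+ 2-cell libraries had 4.34 and 4.08 FPKM, against 1.94 and 2.18 FPKM in 1-cell libraries of that genotype. Dppa4 m+z+ 2-cell libraries had 4.79 and 7.75 FPKM, against 1.85 and 0.958 FPKM in 1-cell libraries of that genotype. All 8 2-cell libraries lay above all 8 1-cell libraries. Cpeb2 rose by 1.90 (adjusted p 0.00149), 1.16 (0.0251) and 1.59 (0.00608) on the log2 scale in Dppa2 m-z+, Dppa2 m+z+ and Dppa4 m+z+ embryos, and its change of 0.77 in Dppa4 m-z+ embryos did not pass (0.135; standard error 0.41 each). The call in Dppa2 m+z+ embryos was lost without 2-cell replicate 1 (0.75, adjusted p 0.196), without 1-cell replicate 1 (1.13, adjusted p 0.0903) and without 1-cell replicate 2 (1.19, adjusted p 0.0765). That in Dppa4 m+z+ embryos was lost without 1-cell replicate 2 (1.32, adjusted p 0.0609) and without 2-cell replicate 2 (1.29, adjusted p 0.0518).

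Cpeb3 was at 11.3 and 10.45 FPKM in Dppa2 m-z+ 2-cell libraries, against 10.65 and 14.7 FPKM at the 1-cell stage, and at 11.7 and 5.62 FPKM in Dppa2 m+z+ 2-cell libraries, against 22.9 and 24.9 FPKM. Dppa4 m-z+ 2-cell libraries had 10.6 and 18.6 FPKM, against 24.4 and 23.7 FPKM in 1-cell libraries of that genotype. Dppa4 m+z+ 2-cell libraries had 8.43 and 15.3 FPKM, against 25.6 and 26.8 FPKM in 1-cell libraries of that genotype. The Dppa2 m-z+ 1-cell libraries were the only 1-cell libraries within the 2-cell range. Cpeb3 fell in both controls, by 1.44 (adjusted p 0.00243) in Dppa2 m+z+ and by 1.13 (adjusted p 0.0134) in Dppa4 m+z+ embryos on the log2 scale, and its changes of -0.19 and -0.73 in Dppa2 m-z+ and Dppa4 m-z+ embryos did not pass (adjusted p 0.644 and 0.0846; standard error 0.33 each). The Dppa4 m+z+ call was lost without 2-cell replicate 1 (-0.74, adjusted p 0.143), 1-cell replicate 1 (-1.17, adjusted p 0.0512) or 1-cell replicate 2 (-1.10, adjusted p 0.0656). The Dppa4 m-z+ change passed without 2-cell replicate 2 (-1.11, adjusted p 0.0375). The difference between the stage changes of Dppa2 m-z+ and m+z+ embryos was 1.25 (standard error 0.47), with an unadjusted p of 0.0209 and an adjusted p of 0.485.

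The makeup of the summed Cpeb level differed between the stages in total RNA, while the sums themselves overlapped. In total RNA the 4 Cpeb genes summed to 85.2 to 122 FPKM at the 2-cell stage (median 92.0) and 89.3 to 143 FPKM at the 1-cell stage (median 129). Cpeb1 made up 5.55% to 17.5% of that sum in the 8 2-cell libraries and 26.4% to 50.2% in the 8 1-cell libraries, without overlap. Cpeb4 made up 65.5% to 77.8% at the 2-cell stage and 32.4% to 58.6% at the 1-cell stage, also without overlap. All 9 genes together summed to 224 to 422 FPKM at the 2-cell stage and 769 to 906 FPKM at the 1-cell stage. PolyA RNA differed: Cpeb sums were 10.66 to 51.8 FPKM in the 14 2-cell libraries, mutants included, and 51.96 to 67.1 FPKM in the 2 WT 1-cell libraries. There the Cpeb1 share was 12.9% to 54.9% at the 2-cell and 61.1% to 69.3% at the 1-cell stage, without overlap. The polyA Cpeb4 share overlapped, at 23.6% to 70.7% and 22.1% to 24.4%.

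**Figure D2:**
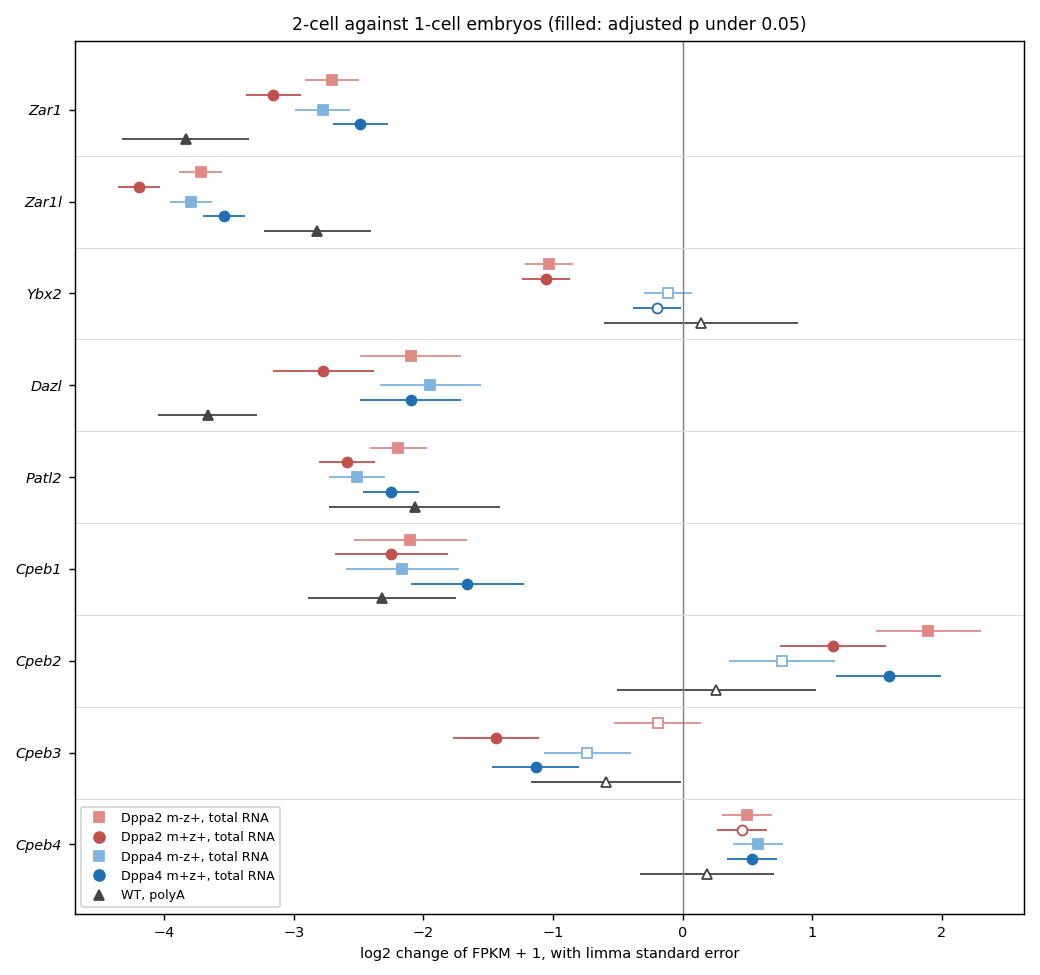
Log2 change of FPKM + 1 between 2-cell and 1-cell embryos with limma standard errors, for 9 genes and 5 comparisons; filled symbols have an adjusted p under 0.05. Zar1, Zar1l, Dazl, Patl2 and Cpeb1 are filled and below 0 in all 5, whereas Cpeb4 lies between 0.19 and 0.58 and Cpeb2 between 0.26 and 1.90.

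In polyA RNA of WT embryos the same 5 messages fell. Zar1 was at 5.18 and 6.95 FPKM in 2-cell embryos, against 95.7 and 102.5 FPKM in 1-cell embryos (log2 change -3.83 ± 0.49 standard error, adjusted p 1.59e-05). Dazl was at 41.3 and 37.5 FPKM in 2-cell embryos, against 512 and 508.5 FPKM in 1-cell embryos (-3.66 ± 0.38, adjusted p 1.62e-06), which made it the most abundant of the 9 genes at the 1-cell stage. Zar1l was at 38.6 and 36.0 FPKM in 2-cell embryos, against 245.5 and 295 FPKM in 1-cell embryos (-2.82 ± 0.41, adjusted p 5.85e-05). In all 14 polyA 2-cell libraries, mutants included, these 3 genes lay below both WT 1-cell libraries, with highest 2-cell values of 28.6 FPKM for Zar1, 54.0 FPKM for Zar1l and 88.05 FPKM for Dazl.

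Cpeb1 was at 11.65 and 3.93 FPKM in WT 2-cell embryos, against 36.0 and 41.0 FPKM in WT 1-cell embryos (log2 change -2.32 ± 0.57, adjusted p 0.00583). Patl2 was at 1.27 and 0.249 FPKM in WT 2-cell embryos, against 6.405 and 5.70 FPKM in WT 1-cell embryos (-2.07 ± 0.66, adjusted p 0.028). These calls were less firm than the other 3. Without WT 2-cell replicate 2 the Cpeb1 change was -1.64 (adjusted p 0.0973) and the Patl2 change -1.64 (adjusted p 0.184), and without WT 1-cell replicate 2 they were -2.23 (adjusted p 0.0533) and -2.14 (adjusted p 0.103); Patl2 was also lost without WT 1-cell replicate 1 (-1.99, adjusted p 0.131). For single embryos as here, 2 libraries per stage give a wide error.

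Ybx2, Cpeb2, Cpeb3 and Cpeb4 did not pass in WT polyA RNA. Ybx2 was at 40.5 and 19.4 FPKM in 2-cell embryos, against 16.05 and 39.8 FPKM in 1-cell embryos (log2 change 0.14 ± 0.75, adjusted p 0.947; -0.25 with median-ratio scaling and -0.08 with a common total). Cpeb4 was at 11.5 and 21.6 FPKM in 2-cell embryos, against 11.5 and 16.35 FPKM in 1-cell embryos (0.19 ± 0.52, adjusted p 0.855; -0.19 with median-ratio scaling and -0.03 with a common total). Cpeb3 was at 5.32 and 2.52 FPKM in 2-cell embryos, against 4.01 and 9.10 FPKM in 1-cell embryos (-0.59 ± 0.58, adjusted p 0.50). Cpeb2 was at 0 and 2.49 FPKM in 2-cell embryos, against 0.459 and 0.662 FPKM in 1-cell embryos (0.26 ± 0.77, adjusted p 0.867; -0.36 with a pseudocount of 0.1). The stages overlapped for all 4, and the errors are too wide to tell the small total RNA changes of Cpeb4 from none. PolyA libraries do not mark strand, and exons of Cpeb2 and Cpeb3 overlap Gm7854 and A330032B11Rik on the opposite strand, so that reads of these pairs cannot be separated there.

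**Figure D3:**
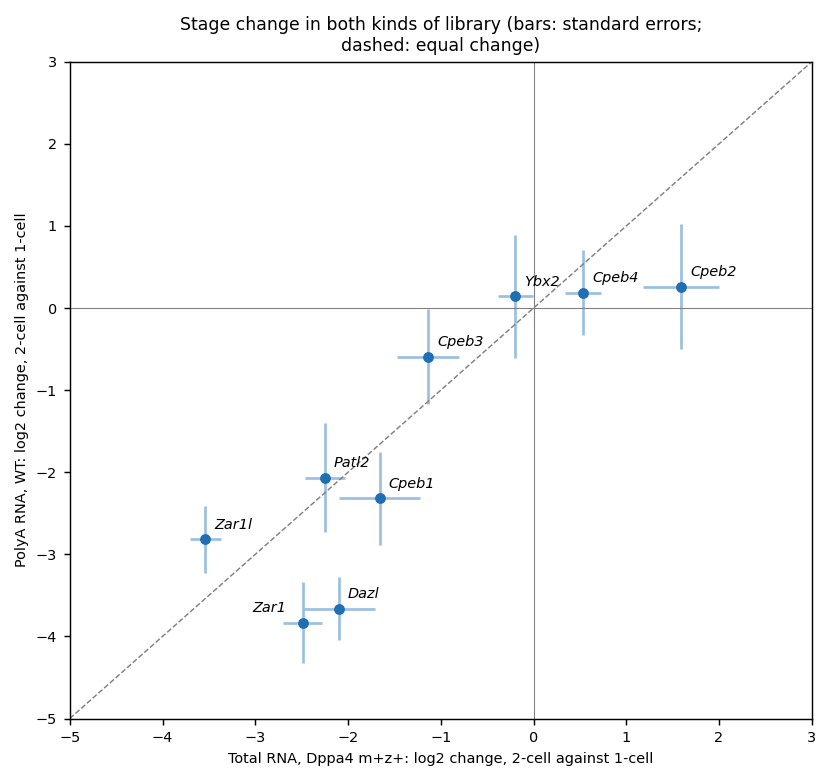
Log2 change between 2-cell and 1-cell embryos in total RNA of Dppa4 m+z+ embryos (horizontal axis) and in polyA RNA of WT embryos (vertical axis), both B6, with standard errors; the dashed line marks equal change. Zar1 and Dazl lie below the line, at -2.49 and -2.10 in total RNA and -3.83 and -3.66 in polyA RNA, and Zar1l above it, at -3.54 and -2.82.

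The levels in both kinds of library were set side by side for B6 embryos, WT in polyA RNA and Dppa4 m+z+ in total RNA. The tables were normalized separately and the libraries made by different kits, so no test was made, and the kit and the selection for polyA tails cannot be told apart. Ybx2 averaged 27.9 FPKM in polyA RNA and 160.2 FPKM in total RNA at the 1-cell stage, a log2 ratio of -2.48 that placed it at the 3.3 percentile of 13916 genes. At the 2-cell stage it averaged 29.9 FPKM in polyA and 141 FPKM in total RNA (-2.20, percentile 6.4). Dazl went the other way at the 1-cell stage, with 510.4 FPKM in polyA and 216 FPKM in total RNA (1.24, percentile 84.1), and not at the 2-cell stage, with 39.4 and 58.6 FPKM (-0.56, percentile 31.6). Zar1 stood at 99.1 FPKM in polyA and 156 FPKM in total RNA in 1-cell embryos (-0.65, percentile 29.0) and at 6.07 and 27.7 FPKM in 2-cell embryos (-2.02, percentile 7.9). Zar1l was higher in polyA than in total RNA at both stages, with ratios of 1.06 at the 2-cell and 0.35 at the 1-cell stage. Cpeb4 was at a ratio of -1.97 at the 2-cell and -1.65 at the 1-cell stage, and Cpeb3 at -1.39 and -1.85. The median of all genes was 0.19 at the 2-cell stage and -0.01 at the 1-cell stage.

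Loss of maternal Dppa2 or Dppa4 was not followed by a called change in any of the 9 messages in total RNA. In 2-cell embryos 0 of 9 members passed for Dppa2 m-z+ against m+z+, where 0.186% of genes did, and 0 of 9 for Dppa4, where 0.0% of genes did. In 1-cell embryos 0 of 9 passed for Dppa2, where 0.0398% of genes did, and 0 of 9 for Dppa4, where 0.00664% did. At an unadjusted p under 0.05, 1 member was past in Dppa2 2-cell embryos (Zar1l), 1 in Dppa2 1-cell embryos (Cpeb3) and none in either Dppa4 comparison. Of all 15068 genes, 1932 were past it in Dppa2 2-cell, 459 in Dppa2 1-cell, 402 in Dppa4 2-cell and 192 in Dppa4 1-cell embryos. With so few genes called in all, these counts of 0 are no result about the members. Standard errors of the 36 log2 differences ran from 0.16 to 0.44.

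The Zar1l difference was the nearest to the threshold. Zar1l was at 15.2 and 17.1 FPKM in Dppa2 m-z+ 2-cell libraries, against 11.1 and 8.44 FPKM in Dppa2 m+z+ 2-cell libraries, without overlap (log2 difference 0.68, standard error 0.16, unadjusted p 0.00117, adjusted p 0.102, over its alternatives 0.0514 to 0.982). In the Dppa4 arm the difference was -0.26 (adjusted p 1.0), and the difference between the arms, a contrast added after the data were seen, was 0.94 (standard error 0.23, adjusted p 0.30). The 5 oocyte markers summed to 320.0 and 364 FPKM in Dppa2 m-z+ 2-cell libraries, against 270.0 and 287 FPKM in Dppa2 m+z+ 2-cell libraries, and their part in the Zar1l difference was not tested. Cpeb3 was at 10.65 and 14.7 FPKM in Dppa2 m-z+ 1-cell libraries, against 22.9 and 24.9 FPKM in Dppa2 m+z+ 1-cell libraries, without overlap (log2 difference -0.88, standard error 0.33, unadjusted p 0.0215, adjusted p 1.0).

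The stage change itself was compared between genotypes. No member passed in either arm, where 0.0% of genes did for Dppa2 and 0.00664% for Dppa4, with 1299 and 270 genes at an unadjusted p under 0.05. In the Dppa2 arm all 9 differences between the stage change in m-z+ and that in m+z+ embryos were above 0, from 0.03 for Ybx2 to 1.25 for Cpeb3, but those of Ybx2, Cpeb1 and Cpeb4 went below 0 when single libraries were left out, to as low as -0.16, -0.56 and -0.25. In the Dppa4 arm they ran from -0.82 for Cpeb2 to 0.40 for Cpeb3. The 9 genes share libraries, so these signs are not independent.

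**Figure D4:**
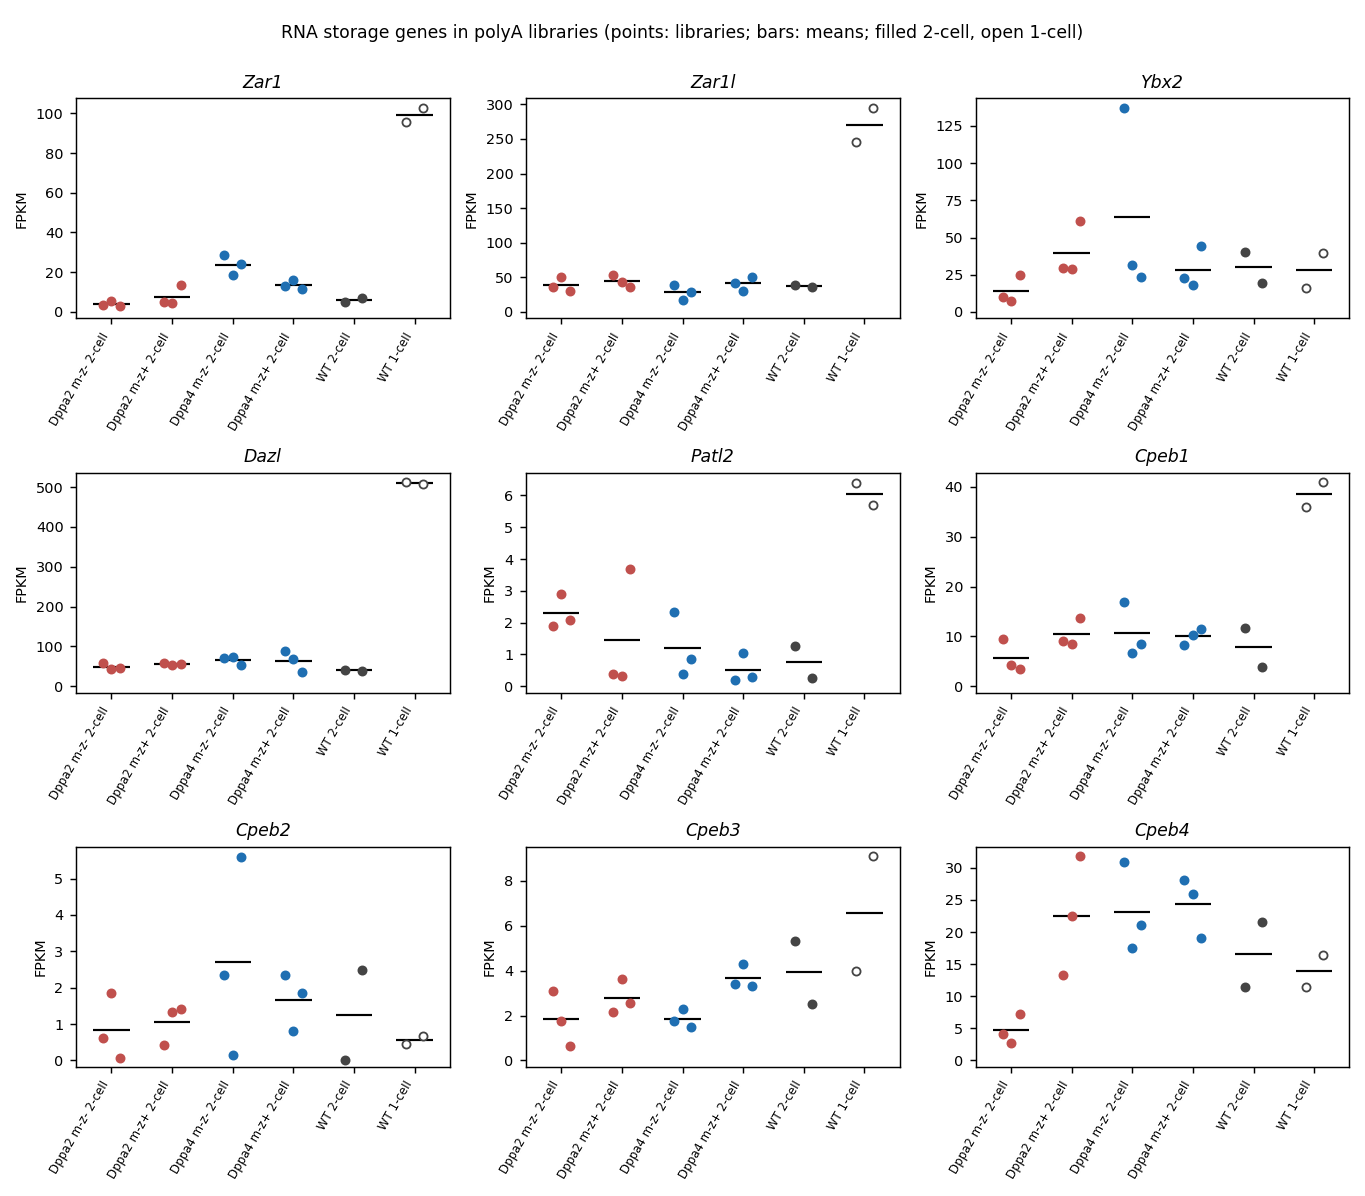
FPKM of each gene in every polyA library, on a linear axis, by group; points are single-embryo libraries, bars are means of 3 mutant or 2 WT libraries, filled points are 2-cell and open points 1-cell embryos. The 3 libraries labelled Dppa2 m-z- have the lowest Cpeb4 values, at 2.77 to 7.23 FPKM, and the 3 Dppa4 m-z- libraries the highest Zar1 values among 2-cell embryos, at 18.35 to 28.6 FPKM.

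In polyA RNA of 2-cell embryos no member passed in any of the 6 genotype comparisons either. For m-z- against m-z+ embryos the share of genes called was 0.0054% for Dppa2 and 0.0162% for Dppa4. For m-z- against WT embryos it was 0.0973% and 0.0648%, and for m-z+ against WT embryos 0.113% and 0.0%, in the same order of arms. At an unadjusted p under 0.05, Ybx2 and Cpeb4 were past in Dppa2 m-z- against m-z+ embryos, Cpeb4 in Dppa2 m-z- against WT, Zar1 in Dppa4 m-z- against WT and Zar1 in Dppa4 m-z+ against WT embryos. Of all 18506 genes, 1415, 1149, 1976 and 1230 were past it in these 4 comparisons in turn, or 6.21% to 10.7%. The comparisons with WT share the same 2 WT libraries. These are B6 and controls of the Dppa4 arm, while the Dppa2 arm was on a mixed B6/DBA background in total RNA. The Dppa2 groups thus have no control of their own arm in polyA RNA. In their comparisons with WT, genotype and any difference in background cannot be told apart.

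Cpeb4 gave the smallest p of these comparisons. It was at 4.10, 2.77 and 7.23 FPKM in the libraries labelled Dppa2 m-z-, against 13.3, 22.4 and 31.8 FPKM in Dppa2 m-z+ libraries, without overlap. WT 2-cell embryos had 11.5 and 21.6 FPKM, Dppa4 m-z- embryos 30.85, 17.5 and 21.0 FPKM, and Dppa4 m-z+ embryos 28.1, 25.9 and 19.07 FPKM, so that the libraries labelled Dppa2 m-z- were below every other polyA library, 1-cell included. The log2 difference of Dppa2 m-z- against m-z+ was -2.04 (standard error 0.42, unadjusted p 0.000146, adjusted p 0.185), and against WT -1.63 (standard error 0.47, adjusted p 0.397). Without Dppa2 m-z+ replicate 1 it was -2.36, with an adjusted p of 0.0469, and over its 12 alternatives the adjusted p ran from 0.0469 to 0.856. Without Dppa2 m-z- replicate 3, the library with high blood markers, the difference was -2.34 (adjusted p 0.195). In the Dppa4 arm the difference was -0.09 (standard error 0.42), and the difference between the arms, added after the data were seen, was -1.95 (standard error 0.60, unadjusted p 0.00444, adjusted p 0.378). Dppa2 was still detected in the libraries labelled Dppa2 m-z-, at levels that overlap those of m-z+. The deleted allele is not given, so gene-level FPKM cannot check this label. The part of Dppa2 loss in the Cpeb4 difference was not tested.

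Ybx2 was at 10.4, 7.40 and 24.7 FPKM in the libraries labelled Dppa2 m-z-, against 29.2, 28.85 and 61.0 FPKM in Dppa2 m-z+ libraries, without overlap (log2 difference -1.50, standard error 0.61, adjusted p 0.611). In Dppa4 m-z- embryos it was at 137, 31.4 and 23.2 FPKM, against 22.5, 18.4 and 44.2 FPKM in Dppa4 m-z+ embryos, which overlap (0.80, standard error 0.61, adjusted p 0.839). Replicate 1 of Dppa4 m-z- held the highest Ybx2 value of the polyA table.

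The Zar1 level of Dppa4 m-z- embryos was 28.6, 18.35 and 24.3 FPKM, against 13.1, 15.95 and 11.4 FPKM for Dppa4 m-z+ embryos and 5.18 and 6.95 FPKM for WT 2-cell embryos. The 3 groups did not overlap. The log2 difference of Dppa4 m-z- against m-z+ was 0.76 (standard error 0.40, adjusted p 0.744), against WT 1.80 (standard error 0.45, unadjusted p 0.000901, adjusted p 0.208, over its alternatives 0.185 to 0.632), and of Dppa4 m-z+ against WT 1.03 (standard error 0.45, adjusted p 0.719). The summed oocyte markers were also high in these libraries, at 1010, 707 and 842 FPKM in Dppa4 m-z- embryos, against 318, 597 and 695 FPKM for Dppa4 m-z+ embryos and 392 and 352 FPKM for WT 2-cell embryos; their part in the Zar1 difference was not tested. In the Dppa2 arm Zar1 was at 3.57, 5.27 and 2.99 FPKM in the libraries labelled m-z-, against 4.85, 4.72 and 13.4 FPKM in m-z+ libraries, which overlap (-0.69, standard error 0.40, adjusted p 0.73).

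For Dppa4 m-z- against m-z+ embryos, the Zar1l difference was of the opposite sign to that of Zar1. Neither passed, and the genes were not compared by a test. Zar1l was at 38.3, 17.85 and 29.5 FPKM in Dppa4 m-z- embryos, against 42.2, 30.95 and 51.0 FPKM in Dppa4 m-z+ embryos, which overlap (log2 difference -0.56, standard error 0.33, adjusted p 0.795). Dazl ranged from 35.3 to 88.05 FPKM over the 14 2-cell libraries, Cpeb1 from 3.36 to 16.8 FPKM, Cpeb3 from 0.656 to 5.32 FPKM, Patl2 from 0.18 to 3.70 FPKM and Cpeb2 from 0 to 5.59 FPKM, with no adjusted p under 0.49 in the genotype comparisons of these 5 genes.

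**Figure D5:**
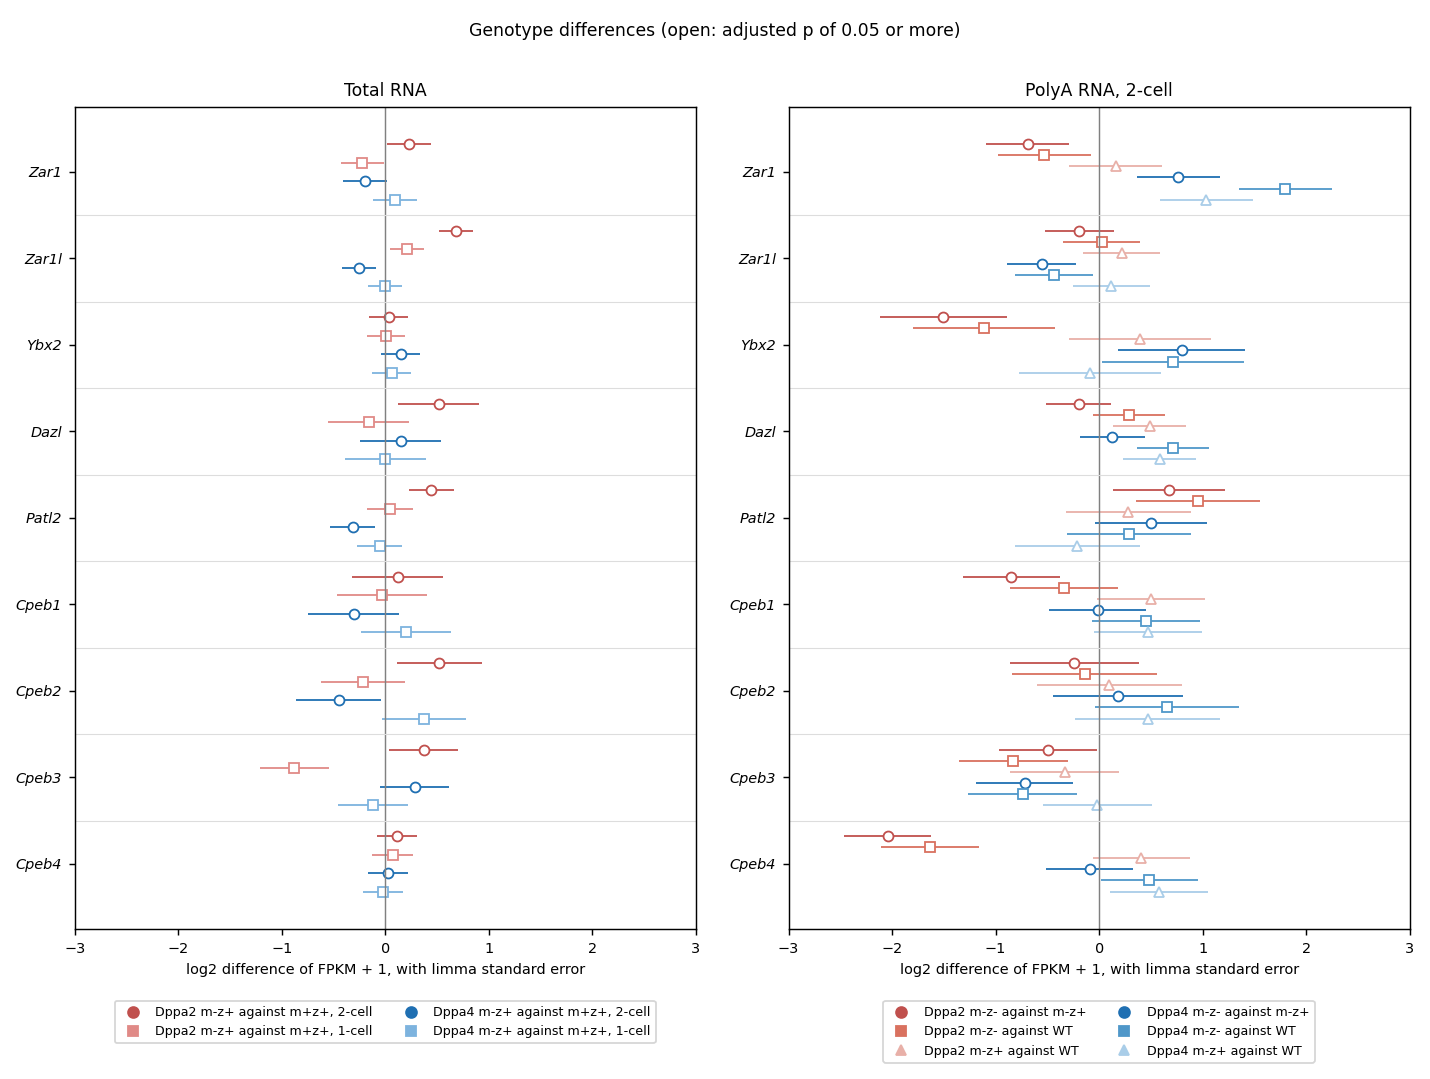
Log2 differences of FPKM + 1 between genotypes with limma standard errors, in total RNA (left) and in polyA RNA of 2-cell embryos (right), for 9 genes. No symbol is filled, since none has an adjusted p under 0.05; the farthest from 0 are Cpeb4 at -2.04 for Dppa2 m-z- against m-z+ and Zar1 at 1.80 for Dppa4 m-z- against WT.

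The genes whose pattern was most like each member were ranked by the smaller of the Pearson correlations of log2(FPKM + 1) over the 16 total RNA and over the 16 polyA libraries, among 13916 genes that passed the filter in both tables. These correlations are a description over libraries that share a stage and a kit. Nearest to Zar1 were Nlrp14 (r 0.975 in total and 0.963 in polyA RNA), Nlrp4a (0.988 and 0.951), both of the oocyte Nlrp family, and Nedd4l (0.959 and 0.948). Nearest to Dazl were E330021D16Rik (0.962 and 0.974), Fbxw14 (0.961 and 0.968) and Fbxw24 (0.958 and 0.955), the last 2 of a family of F-box genes. Nearest to Zar1l were Gm15698 (0.982 and 0.933), Mterf4 (0.988 and 0.922) and Gm6736 (0.942 and 0.92). Patl2 was nearest to Elp3 (0.983 and 0.887), Ddx11 (0.972 and 0.877) and Prepl (0.971 and 0.85), and Cpeb1 to Tbc1d14 (0.948 and 0.947), Clcc1 (0.925 and 0.897) and Vdac3 (0.926 and 0.895). For Ybx2 the nearest were Wdr82 (0.861 and 0.85), Scap (0.823 and 0.821) and Lsm14a (0.847 and 0.813), the last a repressor found with stored RNA. Cpeb2 had Zfp689 (0.768 and 0.764), Pnpla8 (0.807 and 0.706) and Lrrn4cl (0.788 and 0.694) nearest, and Cpeb3 had Gm12397 (0.782 and 0.789), Ndufb5 (0.828 and 0.781) and Glmn (0.797 and 0.768). Those of Cpeb4 were Arhgap21 (0.869 and 0.822), Sbf2 (0.821 and 0.831) and Gtf2a1 (0.827 and 0.788).

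Partners of these proteins were mixed in direction. Of 24 storage and repression partners, 7 rose and 11 fell in Dppa2 m-z+, 6 and 11 in Dppa2 m+z+, 7 and 10 in Dppa4 m-z+, 6 and 10 in Dppa4 m+z+ and 4 and 7 in WT polyA embryos. In total RNA 25.0% to 29.2% of the list rose, against 24.9% to 31.7% of all genes, and 41.7% to 45.8% fell, against 24.2% to 29.9%. In WT polyA RNA 16.7% rose, against 17.4% of all genes, and 29.2% fell, against 8.42%. Their median log2 changes were -0.33, -0.32, -0.13, -0.06 and -0.16 in the order above, beside medians over all genes of 0.02, 0.06, 0.03, 0.04 and 0.23. Pabpc1 and Pabpc1l, the somatic and the oocyte polyA-binding protein, exchanged places. Pabpc1 averaged 174, 174, 113, 106 and 75.8 FPKM at the 2-cell stage in these 5 comparisons, against 5.15, 4.33, 3.85, 3.84 and 0.751 FPKM at the 1-cell stage, with the smallest log2 change at 4.53. Pabpc1l averaged 10.6, 10.4, 22.2, 25.5 and 2.01 FPKM at the 2-cell stage, against 91.2, 79.2, 95.5, 93.3 and 49.9 FPKM at the 1-cell stage, with the largest adjusted p at 0.0031. Fmr1, a translational repressor, rose in all 5, from 1.43 in Dppa4 m+z+ to 2.41 in WT polyA embryos on the log2 scale. Igf2bp2, a messenger-stabilizing protein, had log2 changes of -2.33, -2.44 and -1.92 in Dppa2 m-z+, Dppa2 m+z+ and Dppa4 m-z+ embryos, Fxr1, a relative of Fmr1, fell by 1.72 in Dppa4 m+z+ embryos, and Cirbp, a cold-inducible RNA-binding protein, fell by 2.61 in WT polyA embryos.

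Of 16 genes of the cytoplasmic polyadenylation machinery, 2 rose and 9 fell in Dppa2 m-z+, 1 and 8 in Dppa2 m+z+, 1 and 9 in Dppa4 m-z+, 1 and 9 in Dppa4 m+z+ and 3 and 2 in WT polyA embryos, with median log2 changes of -0.67, -0.37, -0.57, -0.57 and -0.18, beside the same medians over all genes. In total RNA 6.25% to 12.5% of this list rose and 50.0% to 56.2% fell, where 24.9% to 31.7% of all genes rose and 24.2% to 29.9% fell. In WT polyA RNA 18.8% rose and 12.5% fell, where 17.4% and 8.42% of all genes did. Tacc3, a spindle protein named in the frog as a cofactor of CPEB1 (maskin), was among the 2 largest falls in each, with log2 changes of -3.48, -2.63, -3.47, -3.28 and -1.25. Papolg, a polyA polymerase, had changes of -2.95, -3.19, -2.35 and -3.09 in Dppa2 m-z+, Dppa2 m+z+, Dppa4 m+z+ and WT polyA embryos, and Cpsf3, the endonuclease of 3' end cleavage, one of -2.44 in Dppa4 m-z+ embryos. Cdk1, the mitotic kinase, rose in all 5, by 1.14, 1.60, 1.47, 1.02 and 1.97. Papola, the canonical polyA polymerase, rose by 0.81 in Dppa2 m-z+ and by 3.06 in WT polyA embryos.

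Of 17 messages reported as bound by CPEB1 or DAZL in mouse germ cells, 3 rose and 8 fell in Dppa2 m-z+, 3 and 11 in Dppa2 m+z+, 3 and 8 in Dppa4 m-z+, 3 and 9 in Dppa4 m+z+ and 3 and 8 in WT polyA embryos, with median log2 changes of -0.58, -1.08, -0.45, -1.13 and -1.25, where the medians over all genes were 0.02 to 0.23. The share of this list that rose was 17.6% in each, against 24.9% to 31.7% of all genes in total RNA and 17.4% in WT polyA RNA. The share that fell was 47.1% to 64.7% in total RNA, against 24.2% to 29.9% of all genes, and 47.1% in WT polyA RNA, against 8.42%. Sycp1 and Sycp3, components of the meiotic synaptonemal complex, rose in all 5, Sycp1 by 3.42, 3.30, 2.08, 1.61 and 3.41 and Sycp3 by 2.12, 2.90, 1.58, 1.42 and 2.33. The named falls were of Obox1, an oocyte homeobox gene (-2.98, -3.50 and -3.97 in Dppa2 m-z+, Dppa2 m+z+ and WT polyA), H1foo, the oocyte linker histone (-2.71, -2.50 and -2.19 in Dppa2 m-z+, Dppa4 m-z+ and Dppa4 m+z+), Rad51c, a recombination protein (-3.53, -2.46 and -2.66 in Dppa2 m+z+, Dppa4 m-z+ and Dppa4 m+z+), and Plat, tissue plasminogen activator (-3.63 in WT polyA). No gene of the 3 lists passed in any of the 10 genotype comparisons, where at most 0.186% of all genes did. With so few genes called, this is no result about the lists.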

How the data were processed

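The FPKM values were deposited by the authors in 2 gene tables, total RNA and polyA RNA, each with 16 libraries. Per the submitters' processing notes, HISAT2 2.1.0, StringTie 1.3.3b and mm10 were used; the sources used here give neither the annotation nor any filter. The total RNA kit kept strand (reverse) and the polyA kit did not, per the labels' protocols. Testing covered genes reaching 1 FPKM in 2 or more libraries and was done with limma 3.58.1 (statmod 1.5.0, R 4.3.3) on log2(FPKM + 1), with a trended, robust prior. One fit per table took in its 16 libraries. Tests were two-sided, Benjamini-Hochberg adjusted over all genes tested, with calls at an adjusted p under 0.05, and fold changes on this scale understate the change of low genes. Tables were normalized separately, so no test crosses them. Alternatives were a pseudocount of 0.1, scaling to a common total or by median ratios, no filter, the replicate block, only the groups compared and leaving out each library; 3 contrasts between arms were added after the data were seen. The fit was tested on simulated data. Gene IDs were matched to GENCODE M21 for 45143 of 46078 (98.0%). The genes, the lists and the markers were chosen with earlier results of these data known. Named were the 9 genes, the 3 most similar genes of each, the 2 largest rises and falls of each list among those past the threshold, and Dppa2 and Dppa4. Summaries used Python 3.11.15 and pandas 2.3.3.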

Additional observations from a re-analysis of the deposited data

How the results depend on the processing

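Zar1, Zar1l and Dazl kept their stage calls in all 5 comparisons, Patl2 in total RNA and Ybx2 in the Dppa2 arm, under every alternative run. Of 2214 member values under alternatives, 142 changed sign, none of them past the threshold with or without the alternative, and the largest of these as first reported was 0.71 on the log2 scale. Of calls on single genes, a common total ended 4 and added 2, testing only the groups compared ended 3 and added 2, no filter ended 4, a pseudocount of 0.1 ended 1, and leaving out single libraries ended 23 and added 3. Leaving out 1 library left 3 to 5 of the 9 genes called between stages in WT polyA RNA, against 5 with all, the lowest without WT 1-cell replicate 2 or WT 2-cell replicate 2. It left 5 to 6 in Dppa4 m+z+ total RNA, against 8, the lowest without 1-cell replicate 2. It gave 0 to 1 for Dppa2 m-z- against m-z+, against 0 with all, the 1 being Cpeb4. It gave 0 to 1 for the stage change of Dppa2 m+z+ minus that of Dppa4 m+z+, against 0, the 1 being Dazl (-1.52, adjusted p 0.0296 without Dppa4 m+z+ 2-cell replicate 1, over its alternatives 0.0296 to 0.929).

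Replicate numbers are not stated to pair libraries. Deviations of same-numbered libraries from their group means correlated at -0.143 to 0.139 in total RNA and at -0.183 to 0.122 in polyA RNA. With so few libraries per group, such correlations cannot decide whether same-numbered libraries were handled together. With the replicate number as a block, 188 of the single gene values stayed on the same side of the threshold, most of them past it in neither fit. The call lost was 1, Cpeb4 in Dppa2 m-z+ embryos (0.50, adjusted p 0.0518). Depth is unknown, and 2 or 3 libraries per group limit the precision.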
